A study of Mus musculus with 4 samples.

Results

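Granzymes and perforin are the contents of the killing granules of lymphocytes, and 9 of their genes were followed here through the immune cells of mouse skin and skin tumors. The 9 genes, Gzma, Gzmb, Gzmc, Gzmd, Gzme, Gzmf, Gzmg, Gzmk and Prf1, were chosen by name, by a rule that uses no measured value but with earlier results of these data known, from the 31053 genes in the count tables. They were measured as unique molecular identifiers (UMIs, each of which marks 1 captured transcript) per 10000 UMIs and as the percentage of cells with at least 1 UMI. Of 12848 cells that passed the cell filters, 3163 fell into 8 lymphocyte types gated by marker genes, with no granule gene used in any gate. In the whole data set, 29918 UMIs of Gzmc, 14250 of Gzmb, 9077 of Prf1, 6911 of Gzma and 637 of Gzmk were counted. Far fewer were found of Gzmf (303), Gzmd (179), Gzme (138) and Gzmg (1).

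CD45+ cells without DAPI stain were sorted from 2 control skins and 2 skin tumors, and a 3′ droplet library was made from each. The control skins came from uninoculated mice of the strain given as C57/BL6. The tumors grew in the flank of C57BL/6 mice, female and male and between 8 and 10 weeks old, after injection of cells of the 2323 line, and no treatment is named for either group. The 2323 line is a single line from a K14rtTA/tetOCre mouse model of skin tumors, whose K14 promoter drives recombination in the epidermis, so all tumor values rest on that line. The labels do not state the sex or age behind each library, or that the control mice matched the tumor-bearing mice in either, so such differences and the tumor cannot be told apart. Each group has only 2 libraries, and p-values measure only the spread between these libraries.

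Perforin, the product of Prf1, opens pores in the membrane of a target cell, and granzymes are serine proteases that enter through them. Granzyme B cleaves after aspartate and activates caspases, while granzymes A and K cleave after basic residues. Granzymes C to G are further proteases encoded beside Gzmb in rodents. Natural killer (NK) cells and CD8 T cells are the best known users of the pair, and in mouse skin the resident lymphocytes also include dendritic epidermal T cells (DETC), IL-17 type γδ T cells, type 2 innate lymphoid cells (ILC2) and regulatory T cells (Treg).

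Positions are on GRCm38, the build of the deposited counts. Prf1 lies on chromosome 10 (chr10:61297833-61304680, plus strand). Gzma (chr13:113093825-113100981) and Gzmk (chr13:113171608-113225908) are neighbours on the minus strand of chromosome 13, 70.6 kb apart. The other 6 genes lie on the minus strand of chromosome 14 within 145 kb, from Gzme (chr14:56117626-56120625) through Gzmd, Gzmg, Gzmf and Gzmc (chr14:56231441-56234656) to Gzmb (chr14:56258838-56262260). The chromosome 14 neighbours are shown by the 150 bases before their RefSeq transcription start (RefSeq, GRCm38.p6, minus strand, 5′ to 3′), because Gzmb and Gzmc led in different lymphocytes and because Gzmd and Gzme are near copies of each other. Capitals mark a RUNX motif (TGTGGT), a T-box motif (TCACAC), an AP-1 motif (TGANTCA) and a cyclic AMP response element (CRE, TGACGTCA), searched on both strands. The windows are chr14:56262335-56262484 for Gzmb, chr14:56234658-56234807 for Gzmc, chr14:56132594-56132743 for Gzmd and chr14:56120626-56120775 for Gzme.
Gzmb: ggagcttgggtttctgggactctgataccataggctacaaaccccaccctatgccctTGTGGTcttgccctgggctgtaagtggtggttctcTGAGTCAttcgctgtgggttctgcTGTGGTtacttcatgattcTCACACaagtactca
Gzmc: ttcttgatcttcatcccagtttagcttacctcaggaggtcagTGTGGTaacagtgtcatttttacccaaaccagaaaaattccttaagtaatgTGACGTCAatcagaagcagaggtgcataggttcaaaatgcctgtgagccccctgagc
Gzmd: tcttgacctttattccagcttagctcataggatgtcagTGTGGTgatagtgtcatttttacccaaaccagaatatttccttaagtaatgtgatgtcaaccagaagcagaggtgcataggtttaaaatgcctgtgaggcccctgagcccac
Gzme: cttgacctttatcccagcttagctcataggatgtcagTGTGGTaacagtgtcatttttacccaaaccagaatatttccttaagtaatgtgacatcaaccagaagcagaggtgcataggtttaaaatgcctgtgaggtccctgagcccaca

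The Gzmb window carries the T-box and AP-1 letters, and the Gzmc window carries the CRE letters. Over the 250 bases before the start, RUNX letters were found in 8 of the 9 genes and in 14% of 32851 windows of all genes. T-box letters were found in 2 of the 9 (Gzmb and Gzmk) and in 12.3% of all windows, AP-1 letters in 1 (Gzmb) and in 6.75%, and CRE letters in 3 (Gzmc, Gzmf and Gzmg) and in 1.55%. The letters TTCNNNGAA of a STAT motif were in none of the 9 windows and in 7.02% of all. The 150-base windows of Gzmc to Gzmg were 64.0 to 94.7% identical to each other over 10 pairs, and that of Gzmb was 42.0 to 51.3% identical to them. This is no closer than the 41.9 to 51.3% over all 26 pairs not among Gzmc to Gzmg, which include Gzma, Gzmk and Prf1. The transcripts are alike as well. Of the 31-base words in the last 500 bases, where 3′ libraries are read, 37.7% of those of Gzmd, 45.5% of Gzme, 21.1% of Gzmf and 31.9% of Gzmg also occur in another gene. For Gzmc this was 4.04%, and for Gzma, Gzmb, Gzmk and Prf1 it was 0%. Values of Gzmd, Gzme, Gzmf and Gzmg are therefore uncertain as to which gene they belong to.

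The 4 libraries held 34893543 to 73904272 UMIs, and kept cells had a median of 10610 to 13361.5 UMIs. Between 7 and 13 cells per library had a barcode that also occurred in another library, and leaving them out changed no call of a member within a gate. Many cells with at least 2 Cd3 UMIs met no gate. Caps on MHC II or other-lineage UMIs left out 312 and 369 of them in control skins and 94 and 189 in tumors. A further 221 and 136 in control skins and 108 and 29 in tumors were under the caps. In tumor 2 the 189 stand beside 324 gated lymphocytes. These cells are outside all values by lymphocyte gate. Of the markers that the gates did not use, Trbc2 was found in 92.1 to 98.1% of CD8 T cells, Ctla4 in 88.9 to 98.4% of Tregs and Tyrobp in 90.9 to 96.4% of NK cells. Others were rarer, such as Klra7 in 14.9 to 61.5% of NK cells, Sox13 in 0 to 40% of IL-17 type γδ T cells and, in ILC2, Arg1 in 0 to 2.56% and Ccr8 in 66.7 and 41.9% of control but 0 and 14.3% of tumor cells. The DETC gate of tumor 1 stood apart, with Tcrg-C1 in 35.3% of its 17 cells against 90.1 to 92.4% in the other libraries. RNA of macrophages was found in tumor lymphocytes more often than in control ones in some gates. In CD8 T cells the complement gene C1qa was found in 4.85 and 3.51% of control and in 25.7 and 43.2% of tumor cells, and the lysozyme gene Lyz2 in 21.8 and 40.4% against 39.2 and 65.9%. B cell, keratinocyte and neutrophil genes (Cd79a, Krt14 and S100a8) were each found in at most 4.55% of the cells of the CD8 T, NK and Treg gates. The mast cell gene Mcpt4 was found in 14% of CD8 T cells of control skin 2 and in at most 4.26% of cells elsewhere in these gates. Macrophages themselves rarely held a member. After thinning to 2000 UMIs per cell, 0 to 0.562% of macrophages had Gzma, 0.207 to 1.02% had Gzmb, 0.111 to 0.620% had Gzmc, 0 to 0.413% had Prf1, and none had Gzmk. The median depth was 14183 to 17835 UMIs in macrophages, 10027.5 to 14185 in CD8 T cells, 7852 to 13909 in NK cells and 7607 to 9678 in Tregs. All 4 values of a gene are given below for control skins 1 and 2 and then for tumors 1 and 2. A 3′ UMI counts transcripts whatever their length, but capture and the assignment of reads may still differ between genes. Levels of different genes set side by side are therefore a rough guide.

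**Figure D1:**
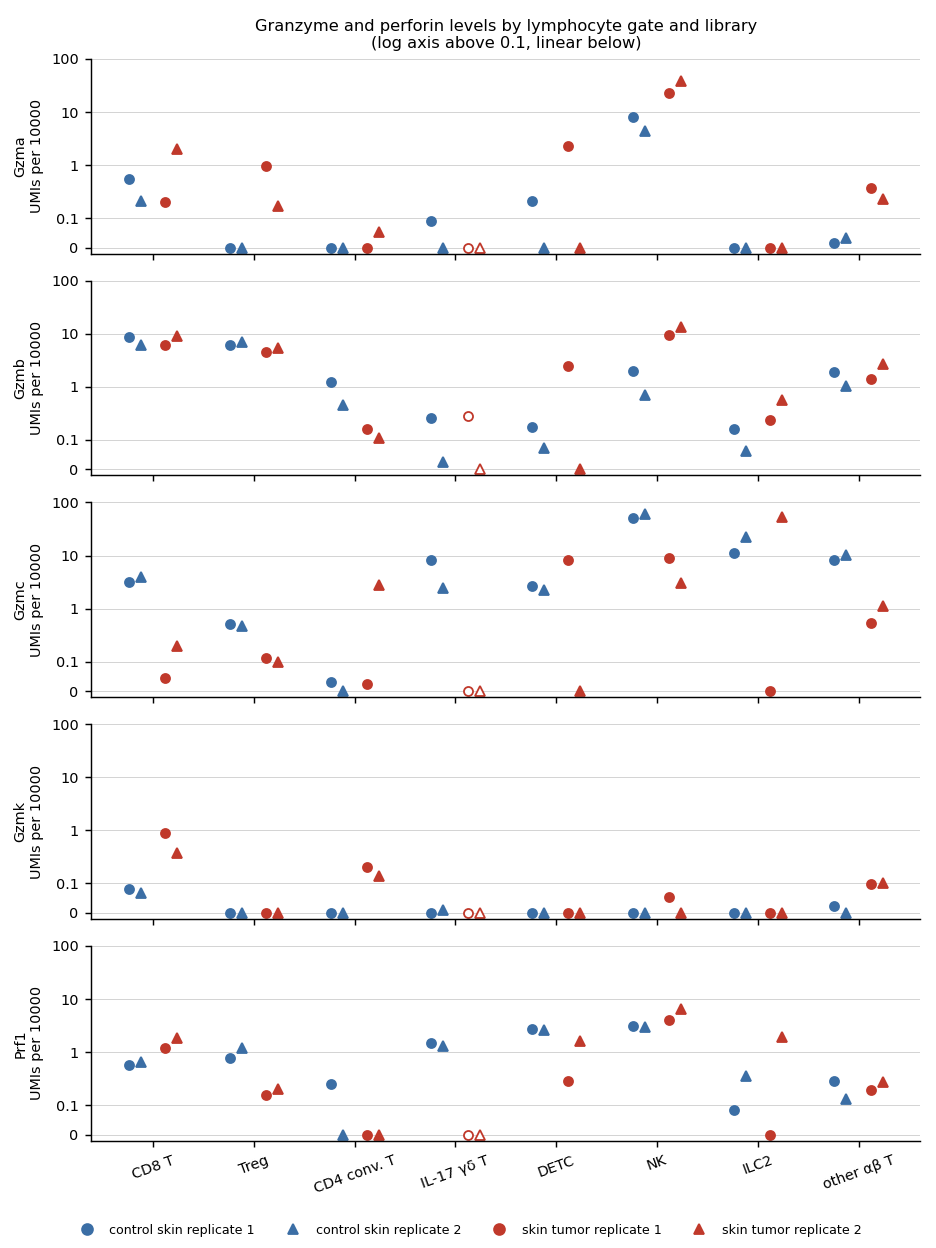
Level of Gzma, Gzmb, Gzmc, Gzmk and Prf1 (UMIs per 10000, on an axis that is linear under 0.1 and logarithmic above) in each lymphocyte gate. Each point is a library of control skin or skin tumor, and hollow points stand for fewer than 10 cells. Gzma is highest in NK cells and Gzmk in CD8 T cells, while Gzmc of the control skins lies above that of the tumors in NK, CD8 T, Treg and other αβ T cells.

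In NK cells the granule contents differed between tumor and control skin in kind. Gzma and Gzmb were higher in tumor NK cells and Gzmc was lower, while Prf1 did not pass the test. The gate held 47 and 28 cells in control skins and 88 and 52 in tumors and did not separate type 1 innate lymphoid cells. Of the 9 genes 3 were called, where 6.74% of the 6275 genes tested were called, 2.87% as higher and 3.87% as lower in tumors (edgeR quasi-likelihood test on UMIs summed per library, adjusted p under 0.05 over all genes of the gate). Of the other 6, Prf1 was tested and not called, and Gzmd, Gzme, Gzmf, Gzmg and Gzmk had too few UMIs to be tested.

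Gzma stood at 8.22 and 4.46 UMIs per 10000 in NK cells of control skins and at 23.0 and 37.9 in tumors. Both tumors lay above both control skins, and the rise was 2.20 ± 0.34 (log2 fold change ± SE, adjusted p = 0.00253). Gzmb, the caspase-activating granzyme, stood at 1.98 and 0.698 against 9.64 and 13.4. Here too the groups did not overlap, with a rise of 2.99 ± 0.38 (adjusted p = 0.000634). Gzmc went the other way, with 50.9 and 60.6 in control skins and 9.17 and 3 in tumors. It fell by 3.20 ± 0.45 on the log2 scale (adjusted p = 0.00125), and in every library a single cell held 19.0 to 47.8% of its UMIs. Prf1, the pore former, stood at 3.08 and 2.93 against 4.05 and 6.56, with a log2 fold change of 0.76 ± 0.25 (adjusted p = 0.0967). Without the cell richest in each gene, the log2 fold changes of Gzma, Gzmb and Gzmc were 2.39, 3.21 and -3.56, all still called.

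The number of NK cells with a transcript moved as the levels did. At 2000 UMIs per cell, Gzma was found in 23.4 and 28.6% of control and 65.9 and 80.4% of tumor NK cells, Gzmb in 12.8 and 14.3% against 50 and 64.7%, and Gzmc in 46.8 and 39.3% against 10.2 and 15.7%. At full depth the shares were 23.4 and 32.1% against 75 and 84.6% for Gzma, 31.9 and 21.4% against 79.5 and 86.5% for Gzmb, and 51.1 and 46.4% against 19.3 and 30.8% for Gzmc. All of these lay above the shares in macrophages. Gzma and Gzmb often met in the same cells. In tumors 95.5 and 93.2% of NK cells with Gzma also had Gzmb, against 31.8 and 50% of those without Gzma. In control skins Gzmc was instead more common in cells without Gzma (63.9 and 57.9%) than in cells with it (9.09 and 22.2%, 1 of 11 and 2 of 9 cells). The control cells without Gzma were also deeper, with medians of 13482 and 14282 UMIs against 10607 and 11548. In tumors Gzmc was found in 18.2 and 25% of NK cells without Gzma and in 19.7 and 31.8% of those with it. Among all granzyme UMIs of the NK gate, Gzmc made up 83.2 and 92.2% in control skins and 21.6 and 5.51% in tumors, where Gzma led with 54.2 and 69.8%. Cells with a UMI of both a granzyme and Prf1 made up 53.2 and 53.6% of control and 77.3 and 82.7% of tumor NK cells.

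The composition of the NK gate differed between the groups as well. Eomes, a T-box factor of circulating NK cells, was found in 36.2 and 60.7% of control and 73.9 and 80.8% of tumor cells, and Itga1, an integrin of tissue-resident cells, in 51.1 and 42.9% against 9.09 and 7.69%. Lyz2 was found in 12.8 and 25% of control and 35.2 and 40.4% of tumor NK cells, and its part in the changes was not tested. When the gate was split by Eomes, a choice made after this had been seen, Gzmc in cells with Eomes stood at 6.90 and 2.69 in control skins and 6.36 and 2.22 in tumors. The values of the groups overlapped, and the log2 fold change was -0.13 ± 0.56 (adjusted p = 0.961). Gzmb in these cells stood at 3.85 and 1.16 against 9.59 and 11.7, with a log2 fold change of 2.08 ± 0.46 that was not called (adjusted p = 0.122), and Gzma at 18.7 and 7.43 against 25.1 and 37.9 (1.26 ± 0.43, adjusted p = 0.305). These cells numbered 17 and 17 in control skins and 65 and 42 in tumors, and 0.431% of 4872 genes were called in them.

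In the NK cells without an Eomes UMI (30 and 11 in control skins, 23 and 10 in tumors) 5.73% of 3035 genes were called, and all 4 members tested were among them. Gzma stood at 2.17 and 0 in control skins and at 14.5 and 37.7 in tumors, Gzmb at 0.905 and 0 against 9.81 and 23.4, and Gzmc at 76.3 and 148 against 20.7 and 7.72. The log2 fold changes were 4.37 ± 0.78, 4.86 ± 0.68 and -2.91 ± 0.50 (adjusted p = 0.0047, 0.000989 and 0.00374). Prf1 was called here too, at 1.91 and 1.34 against 3.22 and 7.43 (1.64 ± 0.41, adjusted p = 0.0345). Whether the changes differ between cells with and without Eomes was not tested. A cell without an Eomes UMI may still express Eomes. Over the whole gate, tumor NK cells were shallower, with medians of 9678 and 7852 UMIs against 12868 and 13909 in control skins. The number of cells missed in this way was not tested. Gzma and Gzmb were at 0 in control skin 2 and passed the filter through the tumors, so their calls here are no support for a rise.

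**Figure D2:**
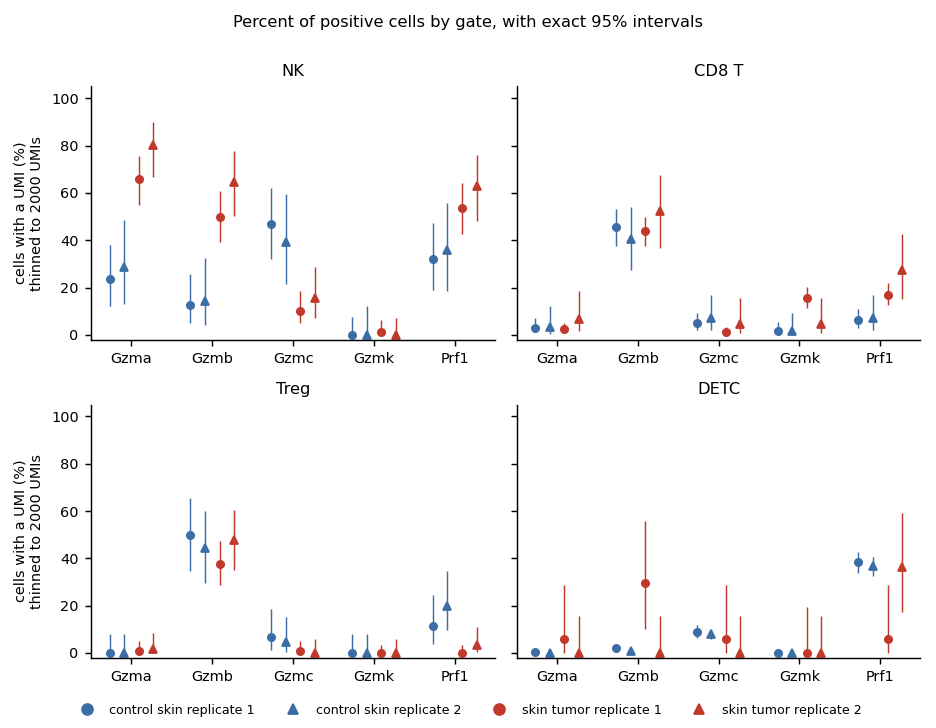
Percentage of NK cells, CD8 T cells, Tregs and DETC with at least 1 UMI of each gene, after thinning to 2000 UMIs per cell, with exact 95% intervals that cover counting error only. Gzma and Gzmb of tumor NK cells lie at 50 to 80.4%, above the control skins, and Prf1 of tumor Tregs lies at 0 and 3.17%, below the 11.4 and 20% of the control skins.

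In CD8 T cells Gzmb was the main granzyme in both tissues and did not pass the test, whereas Gzmk and Prf1 were higher in tumors and Gzmc was lower. The gate held 165 and 57 cells in control skins and 265 and 44 in tumors. The 3 called members stand against a background of 13.6% of 9148 genes called in this gate, 5.19% as higher and 8.38% as lower (edgeR), and 5 of the 9 genes had enough UMIs to be tested. With 1 library left out, a group has a single library, and Gzmd, Gzme and Gzmf passed the filter where tumor 1 was kept. Their UMIs in this gate lay almost wholly in tumor 1, so their higher values in those fits are no support for a rise. Without tumor 2 the log2 fold change of Gzma was -1.12.

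Gzmb stood at 8.83 and 6.26 UMIs per 10000 in CD8 T cells of control skins and at 6.14 and 8.91 in tumors. The groups overlapped fully, with a log2 fold change of -0.14 ± 0.28 (adjusted p = 0.783). At 2000 UMIs per cell Gzmb was found in 45.5 and 40.4% of control and 43.8 and 52.3% of tumor CD8 T cells, and at full depth in 66.1 and 59.6% against 71.3 and 72.7%. Gzmk, the relative of granzyme A, stood at 0.0801 and 0.0660 against 0.908 and 0.380. Both tumors lay above both control skins, and the rise was 3.08 ± 0.46 on the log2 scale (adjusted p = 0.0062). All 6 Gzmk UMIs of control skin 2 came from a single cell. At full depth 5.45 and 1.75% of control cells and 47.2 and 20.5% of tumor cells held Gzmk, and after thinning 1.82 and 1.75% against 15.5 and 4.55%. The call of Gzmk was lost with looser gates.

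Prf1 stood at 0.565 and 0.649 in CD8 T cells of control skins and at 1.22 and 1.85 in tumors. The groups did not overlap, and the rise was 1.19 ± 0.26 (adjusted p = 0.0229), a call lost without either control library or with looser gates. The share of cells with Prf1 was 29.7 and 33.3% against 49.1 and 59.1% at full depth, and 6.06 and 7.02% against 17 and 27.3% after thinning. Gzmc stood at 3.10 and 3.90 against 0.0432 and 0.199. It fell by 5.68 ± 0.53 (adjusted p = 0.00104), and the top cell of each library held 38.8 to 81.8% of its UMIs. Without those cells the log2 fold change was -7.36 (adjusted p = 0.000581). Gzma was scattered, at 0.547 and 0.209 against 0.202 and 1.99, with a log2 fold change of 1.09 ± 0.93 (adjusted p = 0.471).

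A granzyme and Prf1 were found together in 24.8 and 24.6% of control and 43.8 and 45.5% of tumor CD8 T cells at full depth. Of cells with Gzmb, 57.7 and 21.9% in tumors also had Gzmk, against 21.1 and 16.7% of tumor cells without Gzmb. In control skins the same shares were 7.34 and 0% with Gzmb and 1.79 and 4.35% without. These shares are at full depth, and tumor cells with Gzmb were deeper, with medians of 16269 and 10165.5 UMIs against 11233.5 and 7454.5 in those without. Other properties of the gate moved alongside. Cells with cycling genes made up 27.9 and 28.1% of control and 58.9 and 29.5% of tumor CD8 T cells, and Itgae, the integrin of epidermal resident T cells, was found in 155 of 165 and 52 of 57 control cells and in 9 of 265 and 3 of 44 tumor cells. Gzmk stood higher in tumors both in cycling cells (0.996 and 0.444 against 0.114 and 0) and in the others (0.652 and 0.328 against 0.0617 and 0.119), and without the cycling cells all 3 calls held. The part of Itgae status or of macrophage RNA in these results was not tested.

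Most UMIs of Gzmd, Gzme and Gzmf lay in the CD8 T cells of tumor 1. That gate held 139 of all 179 UMIs of Gzmd (in 6 cells) and 117 of 138 of Gzme (in 7 cells). Of Gzmf it held 213 of 303 (in 9 cells). Outside the CD8 T gate, 1 tumor NK cell held 34 UMIs of Gzmd, and 1 control IL-17 type γδ T cell held 22 of Gzmf. Over all its cells tumor 2 held 51 UMIs of Gzmf, in 7 cells. The CD8 T cells of tumor 2 held 0, 0 and 3 UMIs of the 3 genes. The CD8 T cells of both control skins together held 0, 0 and 1. Against 3 counts over the control group, Gzmd was at least 29.6-fold and Gzme at least 24.9-fold higher in tumors, values that rest on tumor 1. In all, 12 CD8 T cells of tumor 1 had a UMI of at least 1 of these genes and 7 had more than 1 of them. All 12 had Gzmb, with a median of 23.5 UMIs against 4 in the other CD8 T cells of that library, 11 had Prf1, 6 had Gzmk and 7 were cycling. Because the 3′ ends of these genes are alike, the counts of Gzmd, Gzme and Gzmf in the same cells may in part come from the same transcripts. The single UMI of Gzmg lay in a CD8 T cell of tumor 1.

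**Figure D3:**
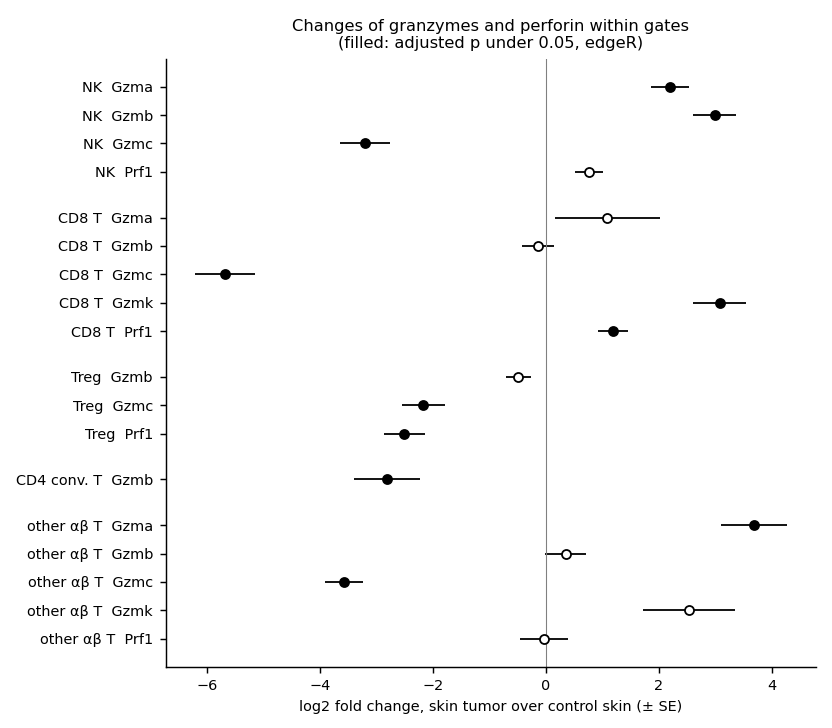
Change of each tested gene from control skin to skin tumor (log2 fold change with its SE, edgeR) within the NK, CD8 T, Treg, conventional CD4 T and other αβ T gates. Points are filled where the adjusted p is under 0.05. The DETC, ILC2 and mast cell gates are not drawn. Gzmc lies below 0 and filled in NK, CD8 T, Treg and other αβ T cells, and Prf1 is filled above 0 in CD8 T cells and below 0 in Tregs. Gzma in Tregs is left out because both control skins were at 0.

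Tregs kept Gzmb and held less Prf1 in tumors. The gate held 45 and 45 cells in control skins and 110 and 63 in tumors. Of the 9 genes 3 were called, against 7.32% of 6977 genes tested in this gate, 2.65% as higher and 4.67% as lower (edgeR), and 4 had enough UMIs to be tested. Gzma and Gzmc passed the filter only through the group where they were higher, so their calls are no support for a change. Without control skin 1 only Prf1 was called.

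Gzmb stood at 6.06 and 7.15 UMIs per 10000 in Tregs of control skins and at 4.48 and 5.31 in tumors. The tumors lay lower, but the log2 fold change of -0.49 ± 0.22 was not called (adjusted p = 0.23). Gzmb made up 80.5 to 95.1% of the granzyme UMIs of Tregs in all 4 libraries, and was found in 60 to 69.8% of Tregs at full depth. Prf1 stood at 0.770 and 1.18 against 0.157 and 0.202. The groups did not overlap, and Prf1 fell by 2.51 ± 0.36 (adjusted p = 0.00927). Prf1 was found in 15 of 45 Tregs of each control skin, 33.3%, and in 3.64 and 6.35% of tumor Tregs, and after thinning in 11.4 and 20% against 0 and 3.17%. The thinned share of tumor 1 lies within those of macrophages. A granzyme together with Prf1 was held by 24.4 and 28.9% of control Tregs and by 2.73 and 6.35% of tumor Tregs. Median depth was 9678 and 9143 UMIs in control and 7607 and 7736 in tumor Tregs.

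The other calls in Tregs rest on few cells. Gzmc stood at 0.508 and 0.472 against 0.12 and 0.101 (log2 fold change -2.17 ± 0.38, adjusted p = 0.0172), with 66.7 to 76.9% of its UMIs in the top cell of each library. Its call was lost without control skin 1, without control skin 2, without cycling cells and under DESeq2. After doublet scoring or without the richest cell of each gene, Gzmc had too few UMIs to be tested. Gzma was not found in control Tregs and stood at 0.968 and 0.173 in tumors, at least 23.7-fold above 3 counts over the control group, but 99.0% of the UMIs of tumor 1 and 91.7% of those of tumor 2 lay in a single cell each. The call of Gzma (adjusted p = 0.0438) was lost without control skin 1 and with looser gates, and Gzma had too few UMIs to be tested without tumor 1, without cycling cells, with stricter gates or without the richest cell of each library.

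Conventional CD4 T cells (63 and 21 cells in control skins, 56 and 43 in tumors) held a granzyme in 9.52 to 20.9% of cells. In this gate 5.33% of 5515 genes were called, 2.9% as higher and 2.43% as lower, and Gzmb was the only member called (edgeR). Gzmb stood at 1.24 and 0.463 in control skins and 0.160 and 0.109 in tumors, a fall of 2.81 ± 0.58 (adjusted p = 0.0316). It passed the filter only through the control skins, so its call is no support for a fall. Of the Gzmb UMIs of control skin 1, 70.2% came from a single cell, and Gzmb was not called without control skin 1 or under DESeq2 (adjusted p = 0.473 and 0.0578). Without cycling cells or without the richest cell of each library it had too few UMIs to be tested. No member was called without control skin 1, where 197 of 6236 genes were called. Gzmc passed the filter through tumor 2 when control skin 2 or tumor 1 was left out, so its higher value in those fits is no support for a rise. Gzmc stood at 0.0295 and 0 in control skins and 0.0229 and 2.79 in tumors, and a single cell held 76.5% of the UMIs of tumor 2. Gzmk was not found in control skins and reached 14 UMIs in 8 tumor cells, at least 4.94-fold above 3 counts over the control group. Prf1 was found in 4 cells of control skin 1 with 17 UMIs and in no other library. No cell of this gate held both a granzyme and Prf1 in any library. The gate allowed at most 1 UMI of Ikzf2 and Il2ra together, so CD4 T cells with more of them could fall into the other αβ T gate. There 8.18 and 6.90% of control and 7.91 and 10.7% of tumor cells held both a granzyme and Prf1. Whether those were CD4 T cells was not tested.

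The αβ T cells that met none of these gates numbered 110 and 58 in control skins and 177 and 84 in tumors, and 10.3% of 8283 genes were called in them, 5.24% as higher and 5.11% as lower. Gzma and Gzmc were the 2 members called (edgeR). Gzmc stood at 8.15 and 10.3 against 0.528 and 1.10. It fell by 3.58 ± 0.34 (adjusted p = 0.000835). Gzma stood at 0.0161 and 0.0323 against 0.366 and 0.228, a rise of 3.68 ± 0.58 (adjusted p = 0.00573) from 2 UMIs in a single cell of each control skin. It passed the filter only through the tumors, so its call is no support for a rise. With looser gates it was not called (0.96, adjusted p = 0.625). Gzmb, at 1.93 and 1.02 against 1.38 and 2.68, and Prf1, at 0.290 and 0.129 against 0.192 and 0.273, overlapped between the groups. C1qa was found in 4.55 and 10.3% of control and 23.2 and 23.8% of tumor cells of this gate and Lyz2 in 15.5 and 27.6% against 37.3 and 57.1%, and their part in the changes was not tested.

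DETC, the γδ T cells of mouse epidermis, were the largest lymphocyte gate of the control skins with 475 and 595 cells, and only 17 and 22 cells were gated in the tumors. In control skins most of them held Prf1 and few held a granzyme. Prf1 stood at 2.77 and 2.63 UMIs per 10000 and was found in 77.5 and 78.2% of cells. The 8 granzymes together stood at 3.09 and 2.34, but were found in 22.1 and 19.7% of cells, and Gzmc made up 87.4 and 96.7% of their UMIs. Gzmb stood at 0.175 and 0.0719. Prf1 without any granzyme was the state of 58.3 and 62.7% of control DETC. In tumors Prf1 stood at 0.282 and 1.64, in 11.8 and 68.2% of cells. Both tumors lay below the control skins, but they differed from each other more than tumor 2 did from the control skins, and the log2 fold change of -1.66 ± 0.78 was not called (adjusted p = 0.475). The test (edgeR) called 0 of 9859 genes in this gate (0%), with 1067 at an unadjusted p under 0.05. Without tumor 2, 3 members were called (Gzmb and Gzmc as higher, Prf1 as lower at -3.58) among 2336 of 11255 genes, and without tumor 1, Gzmc was called as lower among 181 of 11210. In tumor 1, the library with few Tcrg-C1 cells, a single cell held 99.3% of the Gzmc UMIs of the gate, and tumor 2 had no granzyme UMI in DETC.

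IL-17 type γδ T cells numbered 98 and 91 in control skins and 5 and 2 in tumors and could not be tested. In control skins they too held Prf1, at 1.46 and 1.32 in 58.2 and 48.4% of cells, and Gzmc at 8.33 and 2.45, of which a single cell held 78.5 and 49.0%. ILC2 numbered 117 and 93 against 13 and 14, and the test called 10 of 5711 genes in them (0.175%, with 0.158% higher and 0.0175% lower), none of them a member. Their Gzmc stood at 11.2 and 22.8 against 0 and 52.8, and the value of tumor 2 came from 1 cell. In control skins only 10 of 117 and 11 of 93 ILC2 held any granzyme. Outside the lymphocytes, mast cells (17 and 42 cells in control skins, 28 and 26 in tumors) held Gzmb, which stood at 0.298 and 0.102 against 7.24 and 13. Both tumors lay above both control skins, and the log2 fold change was 6.11 ± 0.58 (adjusted p = 0.0253), where 0.521% of 2689 genes were called, 0.186% as higher and 0.335% as lower. Gzmb passed the filter in this gate only through the tumors, so its call is no support for a rise. A single cell held 71.7% of the Gzmb UMIs of tumor 2, and Gzmb was not called without control skin 2 (adjusted p = 0.0811), with the replicate block (0.0653) or after doublet scoring (0.0688).

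Several gates differed from each other in how a member changed from control skin to tumor. These differences were tested with the library as a block, so that gates of the same library are compared. The change of Gzmb was larger in NK than in CD8 T cells by 3.24 ± 0.31 on the log2 scale (adjusted p = 0.00093, with 1.38% of 8089 genes called). For Gzmc and Prf1 the difference between these gates was not called, at 2.68 ± 0.71 (adjusted p = 0.0995) and -0.48 ± 0.29 (adjusted p = 0.504). The change of Prf1 was lower in Tregs than in CD8 T cells by 3.63 ± 0.36 (-3.63, adjusted p = 4.23e-05), and that of Gzmc was higher by 3.38 ± 0.63 (adjusted p = 0.00661), where 3.11% of 8412 genes were called. This pair was added after the opposite directions of Prf1 had been seen. The change of Gzmc differed between conventional CD4 and CD8 T cells by 9.82 ± 1.07 (adjusted p = 0.00463, 0.402% of 7705 genes called), but 76.5% of the Gzmc UMIs of tumor 2 in CD4 T cells came from a single cell. Within the CD4 gate Gzmc had too few UMIs to be tested. It passed the filter here through the counts of CD8 T cells, so the difference is no result about CD4 T cells. Without the library block both differences of Gzmc were not called (adjusted p = 0.0968 for Tregs and 0.103 for CD4 T cells). No member was called between conventional CD4 T cells and Tregs (0.639% of 7361 genes called) or between CD8 T cells and DETC (0% of 9867 called, 892 at an unadjusted p under 0.05).

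**Figure D4:**
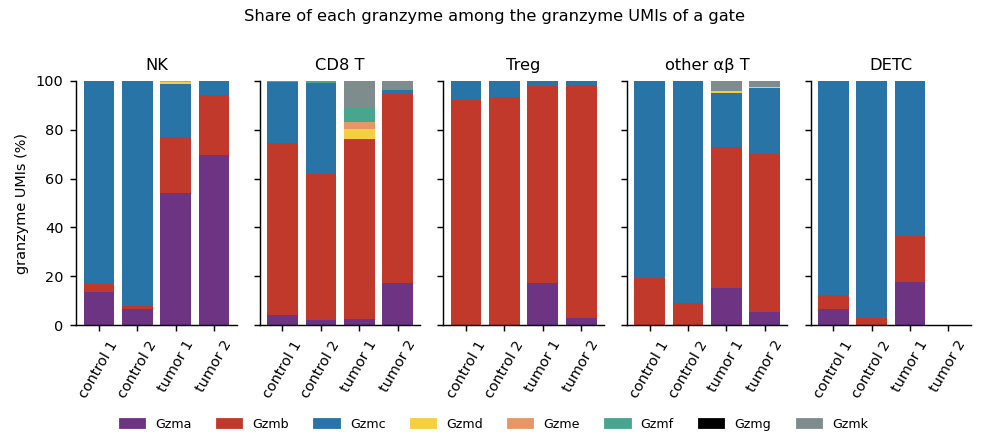
Composition of the granzyme UMIs (percent of all granzyme UMIs of a gate) in each library for NK, CD8 T, Treg, other αβ T and DETC gates. In NK cells Gzmc makes up 83.2 and 92.2% in control skins, and Gzma makes up 54.2 and 69.8% in tumors. Tregs are mostly Gzmb in all libraries, and DETC of tumor 2 have no granzyme UMI.

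The order of the gates by level differed between the genes. In control skins Gzmc was highest in NK cells (50.9 and 60.6), followed by ILC2 (11.2 and 22.8) and then by other αβ T and IL-17 type γδ T cells, whose values overlapped. The ILC2 values rested on the few cells that held a granzyme. Gzmb was highest in CD8 T cells and Tregs, which overlapped, and lower in other αβ T, NK and conventional CD4 T cells, which overlapped with each other. Prf1 was highest in NK cells and DETC, at 2.93 and 3.08 against 2.63 and 2.77, then in IL-17 type γδ T cells, Tregs and CD8 T cells. In tumors NK cells held most Gzma and Prf1 per UMI. For Gzmb the tumor NK cells (9.64 and 13.4) stood above CD8 T cells (6.14 and 8.91) and Tregs (4.48 and 5.31), in that order and without overlap, each over 2 libraries.

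The cells that supplied most of a transcript changed with the abundance of each gate, so the following shares depend on the number of cells as well as on their levels. Gzma came from the NK gate in all 4 libraries, with 58.9 and 71.9% of the UMIs of the library in control skins and 68 and 72.0% in tumors. CD8 T cells supplied 47.1 and 34.1% of Gzmb in control skins and 49.9 and 16.6% in tumors, and NK cells supplied 2.87 and 1.56% in control skins but 16.6 and 23.0% in tumors. Gzmk came mostly from CD8 T cells in tumor 1 (75.1% of 531 UMIs), and to 28.8% of 73 UMIs in tumor 2. The control skins held only 22 and 11 Gzmk UMIs. CD8 T cells supplied 81.8 and 54.5% of these, in control skin 2 from a single cell. The source of Prf1 moved from DETC, with 42.3 and 47.7% in control skins and 0.416 and 4.33% in tumors, to CD8 T cells (44.5 and 13.8% in tumors) and NK cells (31.4 and 45.1%). The libraries held 15955 and 11995 UMIs of Gzmc in control skins and 1199 and 769 in tumors.

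**Figure D5:**
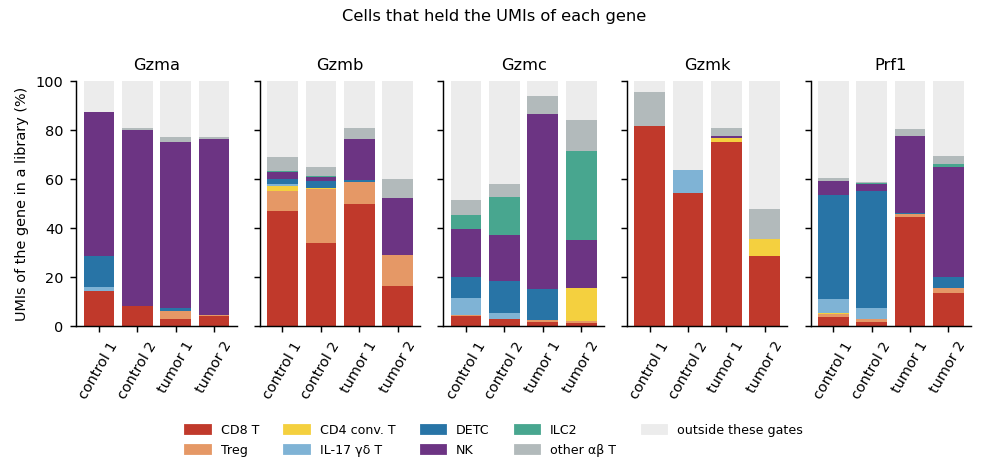
Share of the UMIs of each gene in a library (percent) that came from each gate, with cells outside the lymphocyte gates in grey. NK cells supply 58.9 to 72.0% of Gzma in every library, and DETC supply 42.3 and 47.7% of Prf1 in control skins and 0.416 and 4.33% in tumors.

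The Gzmc of control skin was concentrated in few cells. Cells with at least 10 Gzmc UMIs numbered 102 and 89 in control skins and 14 and 11 in tumors, with up to 862 and 986 and up to 409 and 278 UMIs in a cell. They were chosen by Gzmc itself, and so their other genes are given as a description. In control skins 18 and 9 of them were in the NK gate and 22 and 23 in the DETC gate, and 41 and 32 met no gate. The chemokine gene Xcl1 was found in 100 and 98.9% of these cells, against 61.2 and 68.4% of the other gated lymphocytes of the same libraries. Itga1 was found in 52.9 and 47.2% against 8.96 and 5.45%, the receptor gene Kit in 51 and 48.3% against 16.8 and 18.1%, and Eomes in 6.86 and 1.12% against 2.92 and 2.25%. Most of the Gzmc-rich cells also held a Cd3 UMI, 68.6 and 71.9% against 89.0 and 90.8%. Trdc was found in 53.9 and 57.3% against 59.2 and 75.2%, and Ncr1 in 32.4 and 21.3% against 2.92 and 2.25%. The Gzmc-rich cells were also deeper, with medians of 15571.5 and 17231 UMIs against 9593.5 and 10135.

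Over 30 sums of a gate in a library, the genes whose levels (log2 of CPM + 10, CPM being UMIs scaled to the same total in each sum) ran most like each member were as follows. For Gzma they were the NK receptor genes Klra3 and Klra4 (Pearson r 0.928 each) and the gate marker Klrb1c (0.906), and for Gzmb the chemokine gene Ccl5 (0.745) and Nudt21 (0.730). For Gzmc they were Kit (0.802), Anxa1 (0.795) and Map3k8 (0.793), and for Prf1 the receptor gene Cd244 (0.843), Spry2 (0.837) and Canx (0.817). For Gzmk, which had at least 10 UMIs in only 4 sums, they were Rgs8 (0.868), Clgn (0.801) and Spin4 (0.786). The sums share libraries, and these correlations carry no test.

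A further list of 31 genes was followed, made up of 2 other granzymes, 14 genes of granule transport, processing and matrix, 4 granzyme inhibitors, 2 death ligands, 7 transcription factors and 2 cytokines. In NK cells 28 were tested, 4 were higher in tumors and 3 lower, with a median log2 fold change of 0.20 against 0.01 over all genes. Of all genes of the gate, 2.87% were called as higher and 3.87% as lower. Ctsw, a cathepsin of cytotoxic cells, stood at 9.97 and 6.87 UMIs per 10000 in control skins and at 3 and 2.42 in tumors (log2 fold change -1.67 ± 0.26, adjusted p = 0.00253). The death ligand gene Tnfsf10, which encodes TRAIL, stood at 1.71 and 1.10 against 0.204 and 0.236 (-2.75 ± 0.33, adjusted p = 0.000421), and Fasl, the ligand of Fas, at 0.754 and 0.564 against 1.31 and 1.38 (0.95 ± 0.26, adjusted p = 0.0465). Lyst, needed for granule biogenesis (1.55), and the transcription factor genes Zeb2 (1.17) and Prdm1 (2.01) were also higher, and Hopx (-1.80) was lower.

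In CD8 T cells 27 of the list were tested, 3 were higher and 4 lower, with a median of -0.14 against 0.06 over all genes. Of all genes of the gate, 5.19% were called as higher and 8.38% as lower. Eomes, a transcription factor that activates Gzmb and Prf1 in textbook accounts, stood at 0.0890 and 0.0990 in control skins and at 1.28 and 0.579 in tumors (3.28 ± 0.43, adjusted p = 0.00378). Prdm1 (1.60) and Lyst (1.20) were higher, and Hopx (-2.05), Ctsw (-1.12), the cytokine gene Tnf (-1.02) and Tcf7, a factor of memory and precursor T cells (-1.83), were lower. In Tregs 25 were tested, 0 were higher and 4 lower, with a median of -0.08 against 0.02 over all genes. Of all genes of the gate, 2.65% were called as higher and 4.67% as lower. Runx3, a factor of cytotoxic T cells, stood at 5.46 and 5.18 against 1.29 and 1.67 (-1.91 ± 0.22, adjusted p = 0.00513), and the granule membrane gene Nkg7 at 2.80 and 3.68 against 1.82 and 1.30 (-1.10 ± 0.26, adjusted p = 0.0447). Ctsw (-1.69) and Hopx (-1.78) were lower as well. The granzyme inhibitor genes Serpinb9 and Serpinb6b were not called in any of the 7 lymphocyte gates.

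In conventional CD4 T cells 25 of the list were tested and 3 were higher, namely Stx11, a syntaxin of granule release (2.30), Prdm1 (2.27) and Ifng (2.01). Of all genes of that gate, 2.9% were called as higher and 2.43% as lower. In the other αβ T cells 28 were tested and 6 were higher, among them Eomes (3.10), Cst7, a cystatin (1.30), and Ifng (1.32), while Ctsw (-1.89), Tnfsf10 (-1.17) and Hopx (-1.31) were lower. The shares over all genes of that gate were 5.24% higher and 5.11% lower. In DETC and in ILC2, with 28 and 24 tested, 0 were called. These tests called 0% of 9859 and 0.175% of 5711 genes, so the absence of calls does not show that the list was unchanged.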

How the data were processed

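The authors deposited 1 matrix of raw UMI counts per library, genes by cells, as called by Cell Ranger on mm10 (7.1.0 in the processing notes, 7.0.1 in the file headers), before filtering, normalization or doublet removal. The filters of the study were applied to cells (minimum 100 genes, 1000 UMIs and a log10 genes to log10 UMIs ratio of 0.8, maximum 15% mitochondrial UMIs). Lymphocytes were gated on marker UMIs (T cells needed 2 Cd3 UMIs, NK cells and ILC2 had at most 1), cells with many MHC II (over 100 per 10000) or other-lineage UMIs were left out, and doublet scoring was an alternative. The members and lists were chosen with earlier results of these data known.

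UMIs were summed per gate and library and tested with edgeR 4.0.16 (TMM, filterByExpr, quasi-likelihood, Benjamini-Hochberg over all genes of the gate, threshold 0.05, at least 10 cells in every library). The study tested cells, so sums over libraries replace its test. An exact permutation test of 2 against 2 libraries cannot go below p = 0.333. DESeq2 1.42.0 and other filters, gates and left-out libraries were alternatives. Shares of cells were taken at full depth and after thinning to 2000 UMIs, which left out 0 to 5 cells per library in the NK, CD8 T, Treg and DETC gates, with exact Clopper-Pearson intervals of 95% that cover counting error only. Genes at 0 were bounded by 3 counts over the group. The named genes are the 9 members in every gate, the called genes of the list of 31, and the 3 genes most correlated with each member. Some items are left out of the text. The edgeR test within gates was tried on simulated data, while the tests of differences between gates and DESeq2 were not. Same-numbered samples did not deviate together (r = -0.0829 to 0.0936), so the replicate numbers were not used as pairs. The deposited files hold raw counts, so reads per cell and the study's equalisation of reads between libraries were not used here.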

Additional observations from a re-analysis of the deposited data

Results flagged for a closer look

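The change of Gzmb from control skin to skin tumor was larger in NK than in CD8 T cells by 3.24 ± 0.31 on the log2 scale (edgeR with the library as a block, adjusted p = 0.00093), a difference between gates found by a test of the difference itself. In the same kind of test the change of Prf1 in Tregs minus that in CD8 T cells was -3.63 ± 0.36 (adjusted p = 4.23e-05). Both tumors lay below both control skins in Tregs and above them in CD8 T cells. This pair of gates was added after these opposite directions of Prf1 had been seen, so its p-value is no independent support. The change of Gzmc differed by 3.38 ± 0.63 between Tregs and CD8 T cells (adjusted p = 0.00661) and by 9.82 ± 1.07 between conventional CD4 and CD8 T cells (adjusted p = 0.00463), and it was lower in CD8 T cells in both. The Gzmc values of Treg and CD4 cells rest on few cells, and without the library block neither difference of Gzmc was called (adjusted p = 0.0968 and 0.103). Within the CD4 gate Gzmc had too few UMIs to be tested, and it passed the filter of the difference through the counts of CD8 T cells. That difference is therefore no result about CD4 T cells. Gzmb in mast cells, which lie outside the lymphocytes, was higher in tumors by 6.11 ± 0.58 (adjusted p = 0.0253). It passed the filter only through the tumors, so its call is no support for a rise. The call was lost without control skin 2, with the replicate block and after doublet scoring (adjusted p = 0.0653 and 0.0688 for the last 2). With 2 libraries per group, no library could be tested as standing apart from its group.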

How the results depend on the processing

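Of 26 values tested in 7 lymphocyte gates, 12 were called and none of these changed direction under any alternative, but only 3 were called under all of those run for them (Gzmc in CD8 T and other αβ T cells and Prf1 in Tregs), and 9 were lost under at least 1. The number of members called ranged, when 1 library was left out at a time, from 2 to 7 in CD8 T cells (3 with all libraries), 1 to 3 in Tregs (3), 0 to 2 in conventional CD4 T cells (1), 0 to 3 in DETC (0) and 0 to 1 in mast cells (1), while the calls over all genes ran from 393 to 2950, 238 to 1427, 197 to 532, 0 to 2336 and 4 to 333. Each of these fits leaves a single library in a group. The highest CD8 count includes Gzmd, Gzme and Gzmf, which passed the filter through tumor 1, and the highest CD4 count includes Gzmc, through tumor 2. Without a filter on low counts 7, 4, 2 and 6 members were called in CD8 T, conventional CD4 T, DETC and NK gates, with 2064 of 17113, 728 of 14116, 505 of 17637 and 682 of 14317 genes called. Tregs without cycling cells gave 1 member, with 420 of 5733 genes called, and without the richest cell of each gene also 1, with 358 of 6793. In CD4 T cells no member had enough UMIs to be tested in either setting, where 345 of 4147 and 344 of 5083 genes were called. ILC2 without the richest cell gave 1, with 157 of 5773. DESeq2 called 0 in CD4 T cells, with 197 of 14116 genes called. Looser gates gave 1 in other αβ T cells (597 of 9405), and NK cells with an Eomes UMI alone gave 0 (21 of 4872). Mast cells gave 0 with the replicate block, which pairs samples by number only (0 of 2689 genes called), and with the doublet score (0 of 2590). Neither setting changed any other count of members called by over 1.5 times. Without the library block the differences between gates gave 0 members for CD4 against CD8 T cells, with 7 of 7705 genes called. For Tregs against CD8 T cells 1 was left, with 34 of 8412 genes called, and Gzmc was lost in both.

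Pairs of a gene and a gate numbered 72. The share of cells with a UMI was higher in both tumors than in both control skins in 10 of them and lower in 13. With cells thinned to 1000 UMIs these were 4 and 8. The share of all genes that separate in this way was not taken, so these counts are no result about the members. The pairs include the IL-17 type γδ T gate, with 5 and 2 cells in tumors. The values that changed sign were uncalled with all libraries and cells, but were called with the other sign for Gzma in CD8 T cells without tumor 2 (-1.12), Gzmc in DETC without tumor 1 (-12.97) and Gzmc in ILC2 without the richest cell (-11.76). With 1 library left out, the log2 fold change ran in CD8 T cells from -1.12 to 2.16 for Gzma and -0.45 to 0.18 for Gzmb, in DETC from -8.35 to 11.11 for Gzma, -8.62 to 4.09 for Gzmb and -12.97 to 1.43 for Gzmc, in ILC2 from -12.91 to 1.36 for Gzmc and -6.66 to 3.08 for Prf1, and in other αβ T cells from -0.22 to 0.93 for Gzmb and -0.48 to 0.77 for Prf1. Very large values are fits with a group at 0 UMIs. Without the richest cell Gzma in CD8 T cells was -0.63, and Gzmc was -12.17 in DETC and -11.76 in ILC2. The replicate block gave Gzmc -1.33 in DETC and -1.36 in ILC2. In other αβ T cells Gzmb was -0.050 with looser gates, and Prf1 was 0.011 under DESeq2 and 0.12 with a mitochondrial cap of 5%. The cause of these changes was not tested. ILC2 were not run with that cap or with stricter gates, which left under 10 cells in a library. Depth and the number of cells limit Gzmd to Gzmg and all tumor values of DETC, ILC2 and IL-17 type γδ T cells.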
